A study of Mus musculus with 6 samples.

Results

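The genes described here are 10 heat-shock and chaperone genes, taken by symbol from a table of 47122 gene models: Hspa1a, Hspa1b, Hsph1, Hspb1, Dnajb1, Hsp90aa1, Hspa8, Hsp90ab1, Hspa5 and Hspa2. Each symbol matched 1 row. They were read in RNA sequencing of mouse ovaries collected at 1 day post partum (dpp), in 3 samples labelled WT and 3 labelled BCAS2 cKO, a conditional knockout in which the splicing factor gene Bcas2 was removed in oocytes. The labels name no strain, driver line, deleted exon or treatment, and do not say whether WT animals carried a driver or a floxed allele, or whether ovaries were pooled, so p-values speak of sample spread that may be technical. A description field speaks of granulosa cells, while title, tissue and design give ovary. In a bulk sample, fewer cells of a type and less RNA per cell cannot be told apart.

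Heat-shock proteins are molecular chaperones, which keep other proteins from clumping and help them fold. In the cytosol, HSP70 proteins bind unfolded chains in an ATP cycle that J-domain proteins (HSP40) start and nucleotide exchange factors close, and HSP90 proteins then mature kinases and steroid receptors. Under heat or proteotoxic stress the transcription factor HSF1 binds heat shock elements, inverted repeats of GAA, and drives the inducible genes, while constitutive relatives such as Hspa8 are expressed in unstressed cells. Hspa5 (BiP) serves the endoplasmic reticulum and answers to the unfolded protein response, and Hspa2 is known as the HSP70 of meiotic germ cells, best studied in spermatocytes, where it is found on the synaptonemal complex.

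The upstream sequences are shown because they hold or lack the signals named above. RefSeq promoter windows (build GRCm38.p6) were found for 7 of the 10 members, and not for Hspa8, Hsp90aa1 and Hsp90ab1. The 250 bases before the annotated start were searched, on both strands, for the paired heat shock units GAANNTTC and TTCNNGAA, each of which reads the same on both strands. Capitals mark these pairs in the first 4 sequences and, in Hspa5, the endoplasmic reticulum stress response element, CCAAT and CCACG with 9 bases between them. The sequences of Dnajb1, at the first of its annotated starts, and of Hspa2 have no capitals because neither pair was matched there.

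Hspa1a (chr17:34972157-34972406, minus strand): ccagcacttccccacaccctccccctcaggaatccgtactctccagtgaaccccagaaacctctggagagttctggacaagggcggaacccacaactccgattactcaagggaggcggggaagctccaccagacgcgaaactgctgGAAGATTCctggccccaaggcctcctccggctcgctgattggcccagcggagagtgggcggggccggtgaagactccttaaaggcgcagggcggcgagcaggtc

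Hspa1b (chr17:34959239-34959488, minus strand): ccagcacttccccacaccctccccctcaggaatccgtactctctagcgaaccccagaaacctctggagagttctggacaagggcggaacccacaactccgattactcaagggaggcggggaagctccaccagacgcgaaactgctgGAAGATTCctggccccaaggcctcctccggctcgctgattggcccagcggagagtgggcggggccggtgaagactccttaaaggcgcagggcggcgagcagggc

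Hsph1 (chr5:149636337-149636586, minus strand): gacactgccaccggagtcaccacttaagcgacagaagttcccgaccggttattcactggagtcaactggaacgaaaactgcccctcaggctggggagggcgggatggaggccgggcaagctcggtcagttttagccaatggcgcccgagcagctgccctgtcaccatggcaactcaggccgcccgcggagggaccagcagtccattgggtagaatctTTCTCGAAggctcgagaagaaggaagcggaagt

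Hspb1 (chr5:135887669-135887918, plus strand): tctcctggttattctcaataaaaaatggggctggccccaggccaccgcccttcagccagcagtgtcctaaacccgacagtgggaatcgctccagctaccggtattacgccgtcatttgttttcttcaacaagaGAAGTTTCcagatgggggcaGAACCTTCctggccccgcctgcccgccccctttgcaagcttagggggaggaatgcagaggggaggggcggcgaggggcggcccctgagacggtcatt

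Dnajb1 (chr8:83607925-83608174, plus strand): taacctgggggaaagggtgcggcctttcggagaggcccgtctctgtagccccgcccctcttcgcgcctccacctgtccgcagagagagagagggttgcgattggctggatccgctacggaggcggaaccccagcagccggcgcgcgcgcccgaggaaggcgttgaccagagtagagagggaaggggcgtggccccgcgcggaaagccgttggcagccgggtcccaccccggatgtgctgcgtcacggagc

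Hspa5 (chr2:34771840-34772089, plus strand): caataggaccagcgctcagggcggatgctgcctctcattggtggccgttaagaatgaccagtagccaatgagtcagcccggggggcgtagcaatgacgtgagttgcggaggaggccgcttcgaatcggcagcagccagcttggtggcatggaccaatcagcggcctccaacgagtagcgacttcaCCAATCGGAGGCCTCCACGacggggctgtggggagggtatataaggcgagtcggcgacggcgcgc

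Hspa2 (chr12:76404120-76404369, plus strand): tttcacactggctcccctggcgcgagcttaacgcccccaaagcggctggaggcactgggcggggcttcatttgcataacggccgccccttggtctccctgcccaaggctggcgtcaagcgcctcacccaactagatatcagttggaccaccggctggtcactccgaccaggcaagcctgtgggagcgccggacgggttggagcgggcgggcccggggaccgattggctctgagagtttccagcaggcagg

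A GAA pair was present once in Hspa1a and Hspa1b, in both from base -104 to -97 before the start, once in Hsph1, which has a further annotated start, and at 2 places in Hspb1. No pair was matched upstream of Hspa5, Hspa2 or either annotated start of Dnajb1, so the windows do not part the inducible members from the others. Such a pair occurred in 12.8% of the 32851 windows of this length in the table, and the stress response element of Hspa5, at -65 to -47, in 0.113%. A longer form, GAANNTTC or TTCNNGAA followed after 2 bases by 1 more unit in the opposite direction, was found in 0.466% of windows and in no window of a member. A match is a description of these letters and not a measured binding site. The windows of Hspa1a and Hspa1b were identical at 247 of 250 bases (98.8%), and counted from the first base of the printed windows the differences, Hspa1a base first, were C44T, T47C and T249G.

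Each library held 16800421 to 19565275 reads, recovered from the deposited FPKM (fragments scaled by gene length and a size term per library). The size term was not the plain read total: it was 0.962 times the recovered reads in WT replicate 1 and 1.03 times in cKO replicate 1. Bcas2 was at 54.5, 37.5 and 35.7 FPKM in WT replicates 1 to 3 and at 18.9, 21.9 and 18.3 FPKM in cKO replicates 1 to 3, so every cKO value lay below every WT value, in the direction of the labels (log2 fold change -1.05, adjusted p = 0.955 in limma, exact permutation p = 0.1, the smallest that 3 against 3 allows). Oocyte markers (10 of 10 tested) summed to 970 to 1462 FPKM in WT and 1081 to 1434 FPKM in cKO, and pregranulosa markers (8 of 8) to 371 to 511 and 414 to 487 FPKM, with none of either list at 0 in all libraries. WT replicate 1 stood apart on the first principal component of all tested genes, which held 46.3% of the variance, at 46.7 against -25.7 to 1.74 in the other 5 libraries. Results that rest on it are therefore given with and without it.

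**Figure D1:**
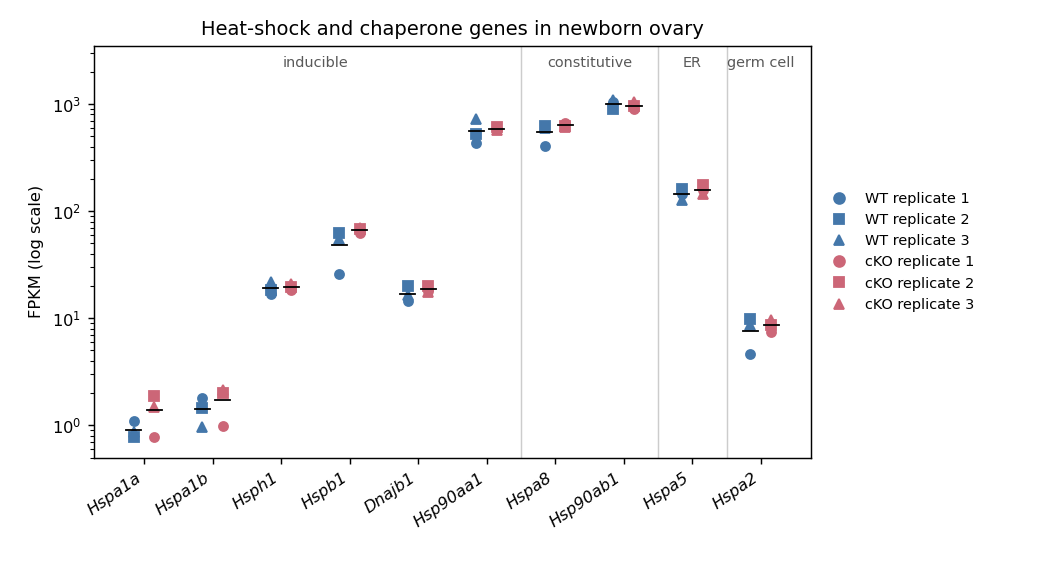
FPKM of the 10 members on a log axis, one symbol per library, with WT in blue, cKO in red and a black bar at each group mean of 3 libraries. Levels run from means of 1.14 and 1.56 FPKM for Hspa1a and Hspa1b to 987 FPKM for Hsp90ab1, and the groups overlap for every member.

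The members ran from some of the most abundant transcripts of the newborn ovary to some of the scarcest tested. By mean FPKM over the 6 libraries the order was Hsp90ab1 (987, range 891 to 1087), Hspa8 (588, 408 to 665), Hsp90aa1 (574, 436 to 718), Hspa5 (151, 128 to 176), Hspb1 (57.3, 25.9 to 70.3), Hsph1 (19.4, 16.99 to 21.8), Dnajb1 (17.8, 14.4 to 20.2), Hspa2 (8.14, 4.69 to 9.75), Hspa1b (1.56, 0.966 to 2.15) and Hspa1a (1.14, 0.781 to 1.87). Neighbours in this order had overlapping ranges in 3 cases, namely Hspa8 and Hsp90aa1, Hsph1 and Dnajb1, and Hspa1b and Hspa1a. Among 14589 tested genes Hsp90ab1 held rank 21, Hspa8 rank 57 and Hsp90aa1 rank 59, while Hspa1b and Hspa1a held ranks 13131 and 14080. Hsp90aa1, although heat-inducible in many cells, was thus among the most abundant transcripts here, and the stress-induced HSP70 pair was near the lower limit of the tested range.

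No member passed the test between WT and cKO ovaries. Of the 10 members, all of which passed the filter of at least 1 FPKM in at least 3 libraries, 0 rose, 0 fell and 10 did not pass an adjusted p of 0.05 in limma, a linear model test fitted over all genes, where 0.0% of tested genes passed, and limma-voom on the recovered reads called 0 genes as well. With all libraries none had an unadjusted p under 0.05 either, where 3.04% of all tested genes did (276 higher and 167 lower in cKO, or 171 and 260 after rescaling to TPM). The groups did not overlap for 0 of the 10 members, against 7.88% of tested genes. The median log2 fold change was 0.15, beside -0.0058 for all tested genes, and 9 of 10 members had a value above 0, or 8 of 10 after rescaling to TPM. Without WT replicate 1 the median was 0.041 and 6 of 10 were above 0. Members above 0 numbered 9 of 10 without any one of the other libraries. On the TPM scale, with all libraries, the median was 0.097 for the members and -0.082 for all tested genes.

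**Figure D2:**
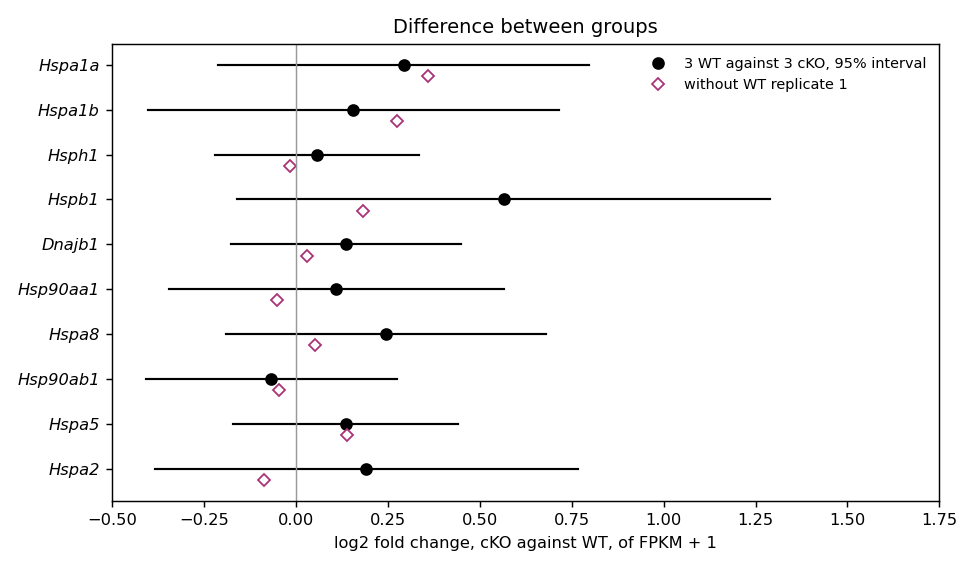
Log2 fold change of FPKM + 1 in cKO against WT for each member (black point) with its 95% interval from limma (line), and the same value without WT replicate 1 (open diamond). Every interval includes 0, and without WT replicate 1 the value of Hspb1 moves from 0.56 to 0.18.

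Hspa1a and Hspa1b encode the stress-induced cytosolic HSP70, and both were barely expressed. Hspa1a (chromosome 17, 35188335 to 35191132, minus strand, GRCm39) was at 1.09, 0.782 and 0.860 FPKM in WT replicates 1, 2 and 3 and at 0.781, 1.87 and 1.49 FPKM in cKO replicates 1, 2 and 3. cKO replicates 2 and 3 lay above all WT libraries, and cKO replicate 1 was the lowest of the 6. Hspa1a reached 1 FPKM in 3 libraries, WT replicate 1 and cKO replicates 2 and 3, and so just passed the filter. Its log2 fold change was 0.29 (SE 0.21, 95% interval -0.21 to 0.80, adjusted p = 0.955 in limma), and the interval reaches a rise of 1.74-fold on the FPKM + 1 scale. Without cKO replicate 1, its lowest library, it was 0.49 (unadjusted p = 0.0440 and adjusted p = 0.9998 in limma). The groups did not overlap in that setting, where the same held for 2085 of 14589 tested genes and 293 had an unadjusted p under 0.05. Without cKO replicate 2 the log2 fold change of Hspa1a was 0.14.

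Hspa1b (chromosome 17, 35175405 to 35178214, minus strand, GRCm39) also had cKO replicates 2 and 3 above every WT library. It was at 1.82, 1.46 and 0.966 FPKM in WT replicates 1 to 3 and at 0.983, 2.01 and 2.15 FPKM in cKO replicates 1 to 3, with overlapping groups (log2 fold change 0.16, SE 0.24, 95% interval -0.40 to 0.71). The value depended on single libraries: leaving out WT replicate 1 gave 0.28 and WT replicate 3 gave 0.016, and leaving out cKO replicates 1, 2 and 3 in turn gave 0.37, 0.067 and 0.033. These levels rest on 38 to 88 reads per library for Hspa1a and 48 to 112 for Hspa1b. With a pseudocount of 0.1 in place of 1 the log2 fold changes were 0.48 and 0.23, still with no call.

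The 2 genes lie 10120 bases apart and are hard to separate by sequence. Their longest open reading frames in GENCODE M21 transcripts (GRCm38) were 99.6% identical, at 1918 of 1926 aligned bases, and 58.8% of all 50-base windows of the Hspa1a transcript occurred without a mismatch in Hspa1b. How reads that fit both were treated is not stated, so the split between the rows is uncertain. Summed, the pair was at 2.90, 2.24 and 1.83 FPKM in WT against 1.76, 3.88 and 3.64 FPKM in cKO, with a log2 fold change of 0.27 (SE 0.25). The sum amounted to 0.265% to 0.712% of the Hspa8 level in the same library. No other pair of HSP70 or HSP90 members examined, Hspa1a with Hspa8 or Hspa2, Hspa8 with Hspa2 or Hspa5, and Hsp90aa1 with Hsp90ab1, shared a 50-base window, with open reading frames 68.8% to 80.3% identical.

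Hsph1 and Dnajb1, partners of HSP70, were moderately expressed and even across libraries. Hsph1 (chromosome 5, 149540308 to 149562594), the HSP110 nucleotide exchange factor, was at 16.99, 18.4 and 21.8 FPKM in WT against 18.5, 19.7 and 21.1 FPKM in cKO, all cKO values lying within the WT range. The difference was 0.057 on the log2 scale (SE 0.12, 95% interval -0.22 to 0.33), and -0.017 without WT replicate 1. After rescaling to TPM it was -0.021, where the median of all tested genes was -0.082. Dnajb1 (chromosome 8, 84334804 to 84339282), the HSP40 that recruits HSP70, was at 14.4, 19.9 and 16.6 FPKM in WT against 17.99, 20.2 and 17.8 FPKM in cKO. The groups overlapped, WT replicate 1 was the lowest library, and the log2 fold change was 0.14 (SE 0.13, interval -0.18 to 0.45), or 0.031 without WT replicate 1.

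Hspb1 (HSP27), a small heat-shock protein that holds unfolded chains and binds the actin cytoskeleton, had the largest log2 fold change of the members on the FPKM + 1 scale with all libraries, and it rested on 1 library. Hspb1 (chromosome 5, 135916773 to 135918417) was at 25.9, 62.8 and 54.9 FPKM in WT replicates 1, 2 and 3 and at 62.4, 67.8 and 70.3 FPKM in cKO. WT replicate 1 was at 0.407 times the mean of the other 5 libraries, while the cKO libraries spread by 6.04% (coefficient of variation). The log2 fold change was 0.56 (SE 0.31, 95% interval -0.16 to 1.29, adjusted p = 0.955 in limma, exact permutation p = 0.2) and 0.18 without WT replicate 1, below the 0.36 of Hspa1a. As a plain ratio of group means, Hspb1 stood at 1.40 and Hspa1a at 1.52. The groups overlapped by 62.8 FPKM in WT replicate 2 against 62.4 FPKM in cKO replicate 1, and without WT replicate 2 the log2 fold change was 0.80 (unadjusted p = 0.0382, adjusted p = 0.955 in limma).

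Hsp90aa1, the stress-responsive cytosolic HSP90, varied mainly among WT libraries. The level of Hsp90aa1 (chromosome 12, 110657470 to 110662829) was 436, 519.6 and 718 FPKM in WT and 589.8, 606 and 571 FPKM in cKO, so the highest and the lowest library were both WT. The coefficient of variation was 25.9% in WT and 2.98% in cKO, and the log2 fold change was 0.11 (SE 0.19, interval -0.35 to 0.56). Without WT replicate 1 it was -0.052.

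Hspa8 (HSC70), the constitutive cytosolic HSP70 that also uncoats clathrin vesicles, was at 408, 624 and 598 FPKM in WT replicates 1, 2 and 3 and at 665, 624 and 609.9 FPKM in cKO. It lies on chromosome 9 from 40712572 to 40716498. WT replicate 1 was the one low library and the other 5 lay between 598 and 665 FPKM. The log2 fold change was 0.24 (SE 0.18, 95% interval -0.19 to 0.68), and 0.051 without WT replicate 1.

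The same library was the exception in an Hspa8 copy. Gm15459 (chromosome 5, 5831529 to 5833633, minus strand, GRCm39), chosen after its values were seen, is annotated as a processed pseudogene in GENCODE M21 and tied to the Hspa8 protein in the deposited table. It was at 102.7 FPKM in WT replicate 1 and at 11.7, 9.58, 11.1, 10.6 and 11.3 FPKM in WT replicates 2 and 3 and cKO replicates 1, 2 and 3. In reads this was 3767 in WT replicate 1 against 374 to 439 in the others. The row held 25.2% of the Hspa8 level in WT replicate 1 and 1.60% to 1.87% elsewhere. Of 584 tested pseudogene rows, 2 exceeded every other library more than 5-fold in WT replicate 1 (Gm15459 and Gm25965), 1 did so in cKO replicate 1 and 0 in the other 4 libraries.

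The Hspa8 reading frame and Gm15459 differ at so few bases that they are shown around each difference, from GENCODE M21 transcripts (GRCm38), with the differing base in capitals. Positions count from 1 at the A of the Hspa8 start codon, and the Gm15459 stretches are those aligned to them.

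Hspa8, bases 94 to 134: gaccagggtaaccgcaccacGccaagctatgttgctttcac

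Gm15459, bases 94 to 134: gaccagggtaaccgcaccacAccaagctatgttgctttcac

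Hspa8, bases 394 to 434: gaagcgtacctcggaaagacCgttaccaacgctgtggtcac

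Gm15459, bases 394 to 434: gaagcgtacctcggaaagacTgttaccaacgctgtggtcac

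Hspa8, bases 529 to 569: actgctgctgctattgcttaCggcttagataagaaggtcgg

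Gm15459, bases 529 to 569: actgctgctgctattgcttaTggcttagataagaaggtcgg

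Hspa8, bases 1202 to 1242: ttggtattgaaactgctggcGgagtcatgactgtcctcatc

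Gm15459, bases 1202 to 1242: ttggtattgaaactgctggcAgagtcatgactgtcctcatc

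Hspa8, bases 1420 to 1460: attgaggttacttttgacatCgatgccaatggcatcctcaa

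Gm15459, bases 1420 to 1460: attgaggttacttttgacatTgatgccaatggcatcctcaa

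Over 1941 bases there were 5 differences and no gap (99.7% identity), with the Hspa8 base first: G114A, C414T, C549T, G1222A and C1440T. Of the 50-base windows of Gm15459, 86.8% occurred unchanged in the Hspa8 transcript, so reads from these windows cannot be told apart by sequence. Adding the 13 pseudogene rows tied to Hspa8, an alternative chosen after seeing the data, gave 512, 637 and 609 FPKM in WT and 678.5, 637.7 and 623 FPKM in cKO. WT replicate 1 remained the lowest library, and the log2 fold change went from 0.24 to 0.15 (SE 0.13). The 6 such rows of Hsp90aa1 came to 1.57% to 1.73% of its level, the 6 of Hsp90ab1 to at most 0.0259%, and no such row was tied to the other 7 members.

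**Figure D3:**
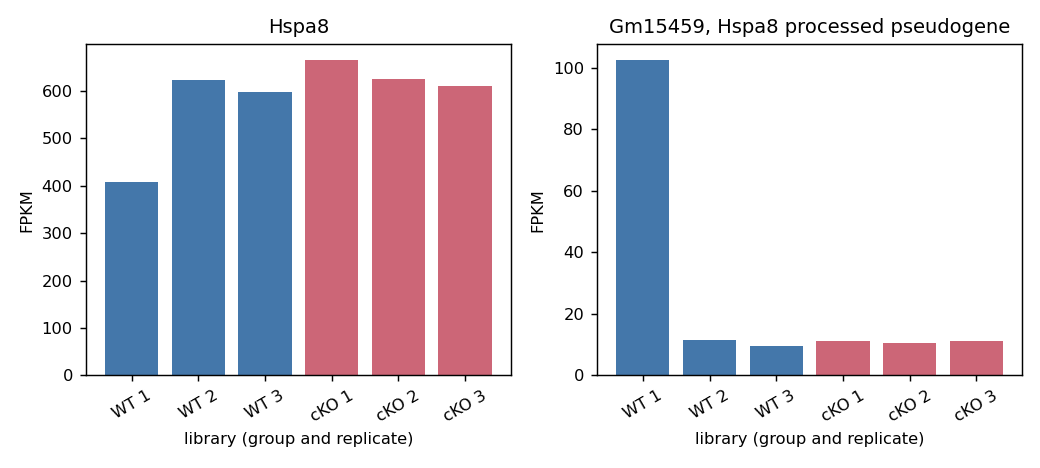
FPKM of Hspa8 (left) and of its pseudogene row Gm15459 (right) in each library, on linear axes of different range that start at 0, with WT in blue and cKO in red. WT replicate 1 has the lowest Hspa8 level, 408 FPKM, and a Gm15459 level of 102.7 FPKM against at most 11.7 FPKM elsewhere.

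Hsp90ab1, the constitutive cytosolic HSP90 and the most abundant member, had a lower mean in cKO within overlapping groups. Its levels (chromosome 17, 45878704 to 45884187) were 1037, 908 and 1087 FPKM in WT and 891, 949 and 1051 FPKM in cKO. The log2 fold change was -0.067 (SE 0.14), and its interval of -0.41 to 0.27 corresponds to 0.753 to 1.21-fold. The ratio of Hsp90aa1 to Hsp90ab1, inducible over constitutive HSP90, was 0.421, 0.572 and 0.661 in WT and 0.662, 0.639 and 0.543 in cKO. WT replicate 1 gave the lowest ratio and the others overlapped.

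Hspa5, the HSP70 of the endoplasmic reticulum, was at 144.5, 161 and 127.5 FPKM in WT against 156, 176 and 143 FPKM in cKO, with overlapping groups and no low value in WT replicate 1. It lies on chromosome 2 from 34662102 to 34666541. The log2 fold change was 0.13 (SE 0.13, 95% interval -0.17 to 0.44). Rabepk on the opposite strand overlaps it by 3596 bases at 3.52 to 4.33 FPKM, and whether counting used strand is not stated. A list of 26 other genes of endoplasmic reticulum folding and the unfolded protein response had 24 tested, of which 0 rose and 0 fell, and 1 had an unadjusted p under 0.05. Their median log2 fold change was -0.029, with 9 higher and 15 lower, and -0.063 to -0.0058 with 1 library left out. After rescaling to TPM it was -0.11, beside -0.082 for all tested genes. Ddit3 (CHOP), a stress-induced transcription factor of this response, was at 3.84, 3.53 and 4.07 FPKM in WT against 5.16, 5.54 and 5.03 FPKM in cKO without overlap (log2 fold change 0.38, adjusted p = 0.955 in limma). Manf, a secreted protein induced by the response, was at 47.2 ± 8.13 FPKM (WT) against 58.3 ± 3.95 FPKM (cKO) (SD, n = 3 each), with overlap. Lower means in cKO were found for the sensor kinase Eif2ak3 (PERK; 6.40 ± 0.581 and 5.43 ± 0.163 FPKM) and the lectin chaperone Canx (115 ± 3.16 and 105 ± 1.92 FPKM, SD, n = 3 each), with an adjusted p of 0.955 each in limma. The groups did not overlap for 3 of these 24 genes, against 7.88% of tested genes.

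Hspa2, the member known from germ cells, was at 4.69, 9.75 and 8.59 FPKM in WT against 7.47, 8.74 and 9.58 FPKM in cKO. It lies on chromosome 12 from 76450559 to 76453712. WT replicate 1 was the lowest, at 0.531 times the mean of the others, and the other 5 libraries overlapped. The log2 fold change was 0.19 (SE 0.24, 95% interval -0.38 to 0.77), and -0.088 without WT replicate 1. As a share of Hspa8 the groups overlapped as well, at 1.15%, 1.56% and 1.44% of Hspa8 in WT and 1.12%, 1.40% and 1.57% in cKO. The interval spans 0.766 to 1.70-fold. Summed surface epithelium markers ordered the libraries as Hspa2 did, highest in WT replicate 2 (759 FPKM) and lowest in WT replicate 1 (372 FPKM). The mean log2(FPKM + 1) of the same markers had the same highest and lowest library but not the same order. It placed cKO replicate 2 (5.93) below WT replicate 3 (6.01) and cKO replicate 1, whereas Hspa2 was higher in cKO replicate 2 than in either. Summed oocyte markers were highest in WT replicate 3 (1462 FPKM) and lowest in WT replicate 1 (970 FPKM). Which cells held the Hspa2 RNA was not tested.

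Meiotic prophase genes, from a list set beside Hspa2, were not called either. Of 20 listed, 19 were tested, 0 rose and 0 fell, and 0 had an unadjusted p under 0.05. The median log2 fold change was 0.051, with 12 of 19 above 0. It was -0.028 after rescaling to TPM, where the median of all tested genes was -0.082. On the FPKM scale it was -0.0080 without WT replicate 1 (8 of 19 above 0), -0.011 without cKO replicate 2, 0.027 without WT replicate 2 and 0.093 to 0.14 without 1 of the other 3 libraries. Hormad1, a protein of meiotic chromosome axes, was at 19.6, 16.9 and 46.8 FPKM in WT against 43.9, 44.1 and 35.8 FPKM in cKO. Hormad1 was lowest in WT replicate 2, the library in which Hspa2 was highest. The list as a whole was not: its sum was lowest in WT replicate 1 (566 FPKM), as Hspa2 was. That sum was 602 FPKM in WT replicate 2 and highest in WT replicate 3 (833 FPKM). Tex12, from the central element between paired chromosomes, was at 14.03 ± 5.10 FPKM (WT) against 18.6 ± 2.75 FPKM (cKO), and Syce3, another, ran from 13.4 to 20.6 FPKM in WT and from 17.4 to 34.6 FPKM in cKO. Bag6, a chaperone known to stabilise HSPA2 protein in spermatocytes, was at 81.5 ± 4.87 and 73.4 ± 6.29 FPKM. All 3 overlapped between the groups.

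Likeness of profile was measured over the 6 libraries as the root mean square difference between log2(FPKM + 1) values, each centred on the gene's own mean, among 8834 protein-coding genes. Nearest to Hspa2 was Epcam, an adhesion protein of epithelial and germ cells, at 0.0629 against a median of 0.334 for all genes compared. Epcam was at 24.1, 49.4 and 44.2 FPKM in WT against 40.7, 45.9 and 52.8 FPKM in cKO, so it too was lowest in WT replicate 1. Fam98c, Tmem151a, Rnf128 and Lsr followed, at 0.0767 to 0.0820. Nearest to the mean profile of Hspa1a and Hspa1b were Dhrs3, a retinaldehyde reductase, Ypel3, Sh3bgrl3, Prxl2b and Pcp4l1, at 0.108 to 0.115 against a median of 0.290. The 6 points share libraries and depth, and the values describe these libraries alone.

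**Figure D4:**
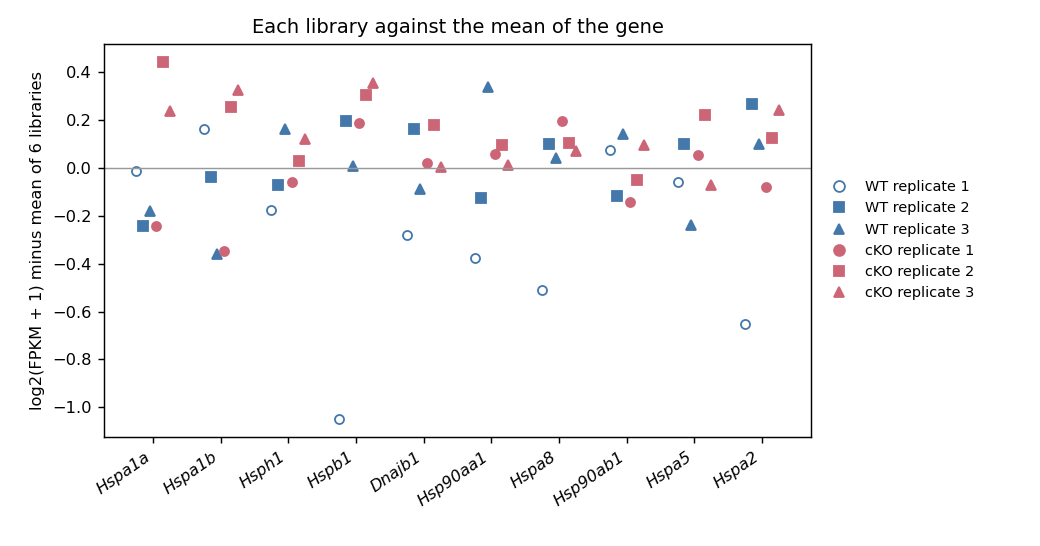
Log2(FPKM + 1) of each member minus its mean over the 6 libraries, one symbol per library, with WT in blue, cKO in red and WT replicate 1 drawn open. WT replicate 1 is the lowest library for 6 of the 10 members and lies furthest down for Hspb1.

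WT replicate 1 held the lowest value of 6 of the 10 members: Hsph1, Hspb1, Dnajb1, Hsp90aa1, Hspa8 and Hspa2. Over all tested genes it held the lowest value for 28.7% and the highest for 27.6%. For Hspa1a, Hspa1b, Hsp90ab1 and Hspa5 it lay within the range of the others. Markers of other cells moved with it. Endothelial markers (9 of 9 tested) summed to 190 FPKM in WT replicate 1 and to 69.4 and 45.7 FPKM in WT replicates 2 and 3, against 54.0 to 69.0 FPKM in cKO, and stroma markers (7 of 7) to 853, 401 and 259 FPKM against 247 to 319 FPKM. Surface epithelium markers (7 of 7) went the other way in sum, with 372, 759 and 633 FPKM in WT and 624 to 737 FPKM in cKO. Wt1 was the exception, at 146 FPKM in WT replicate 1 and 109 to 150 FPKM in the other libraries. No marker of these lists was at 0 in all libraries. Pericyte markers (6 of 7 tested) ran from 17.2 to 62.7 FPKM in WT and 21.0 to 25.4 FPKM in cKO, macrophage markers (6 of 7) from 23.7 to 33.3 and 23.1 to 29.4 FPKM, and mesonephros and oviduct markers (6 of 6) from 76.3 to 90.2 and 82.2 to 99.7 FPKM. Of those last 6, 3 were higher in cKO without overlap and with an unadjusted p under 0.05, though none passed adjustment in limma: Cldn3 (0.850 ± 0.252 FPKM in WT, 3.39 ± 0.756 in cKO), Pax8 (1.80 ± 0.610, 3.68 ± 0.694) and Foxj1 (0.419 ± 0.153, 1.13 ± 0.0996; SD, n = 3 each). Over all tested genes 4.2% were higher in cKO without overlap, and 3.04% had an unadjusted p under 0.05 in either direction. Foxj1 reached 1 FPKM in the cKO libraries alone, so the filter itself fixed its lack of overlap. Cldn3 reached 1 FPKM in WT replicate 3 and the cKO libraries. Epcam, Ovgp1 and Emx2 overlapped, with log2 fold changes of 0.29, 0.031 and -0.13. Erythroid markers (7 of 7) stood at 13348 FPKM in cKO replicate 2 against 401 to 1209 FPKM in the other 5 libraries. Their part in the values of the members was not tested.

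The mean of the inducible members lay below that of the constitutive ones in every library, while Hsp90aa1 taken alone was above Hspa8 in WT replicates 1 and 3. The 6 inducible members (Hspa1a, Hspa1b, Hsph1, Hspb1, Dnajb1 and Hsp90aa1) had a mean log2(FPKM + 1) of 4.03, 4.30 and 4.30 in WT and 4.26, 4.54 and 4.50 in cKO. The 2 constitutive members Hspa8 and Hsp90ab1 had 9.35, 9.56 and 9.66 in WT and 9.59, 9.59 and 9.65 in cKO. Inducible minus constitutive was -5.32, -5.26 and -5.35 in WT and -5.33, -5.05 and -5.15 in cKO on that scale. The cKO mean was 0.13 above the WT mean, with cKO replicate 1 inside the WT range, so the groups overlapped. No test was made of this difference because the members were chosen with results known.

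Other genes around HSF1 had mostly higher means in cKO, with none called. Of 27 listed regulators and targets, 25 were tested, 0 rose and 0 fell, and 3 had an unadjusted p under 0.05 in limma, where 3.04% of all tested genes did. Above 0 were 21 of the 25, or 19 after rescaling to TPM, beside 48.7% of all tested genes. Their median log2 fold change was 0.17 beside -0.0058 for all genes. It was 0.088 after rescaling to TPM, 0.091 without WT replicate 1 and 0.097 without cKO replicate 2. Hsf1 itself was at 16.04, 14.1 and 14.2 FPKM in WT against 18.03, 18.6 and 17.4 FPKM in cKO, so the groups were separate. The log2 fold change was 0.27 (SE 0.0932, unadjusted p = 0.0232 and adjusted p = 0.955 in limma). Hsbp1, which encodes a small protein that binds HSF1, was at 93.0 ± 3.63 and 110 ± 9.09 FPKM, and Dnaja4, an HSP40, at 4.27 ± 0.567 and 5.60 ± 0.539 FPKM in WT and cKO (SD, n = 3 each), also without overlap. Ubb, a polyubiquitin gene, was at 504.5 ± 27.3 and 596 ± 103 FPKM with overlap. The groups did not overlap for 4 of the 25 genes, each higher in cKO, Hspa1l, chosen after its values were seen, being the last, and 4.2% of all tested genes were higher in cKO without overlap. Hspa1l lay at the filter limit, at 0.848 to 1.14 FPKM in WT and 1.18 to 1.45 FPKM in cKO. Among WT libraries only replicate 2 reached 1 FPKM, so Hspa1l was tested only because of its cKO values. The same held for Dnajb5, at 1.21, 0.857 and 0.927 FPKM in WT and 1.14, 1.30 and 1.58 FPKM in cKO. Both count among the 21 above 0 and enter the median of 0.17, so the filter favoured a positive sign there.

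The remaining chaperone lists held no called gene. For the TPM values below, the median of all tested genes was -0.082, against -0.0058 on the FPKM scale. Of 34 other HSP70, HSP40, small heat-shock and exchange factor genes 28 were tested, and 0 rose, 0 fell and 0 had an unadjusted p under 0.05 (median log2 fold change -0.023, -0.10 on the TPM scale and -0.035 to 0.031 with 1 library left out). Dnajb2 was at 8.46 ± 1.27 FPKM (WT) against 10.3 ± 1.40 FPKM (cKO), Dnajc8 at 46.5 ± 1.13 and 50.3 ± 0.786 FPKM, without overlap, and Dnajb12 at 12.5 ± 1.26 and 11.1 ± 0.874 FPKM (SD, n = 3 each). All 18 HSP90 relatives and co-chaperones were tested, 0 rose, 0 fell and 1 had an unadjusted p under 0.05 (median 0.019, -0.062 on the TPM scale and -0.011 to 0.027 with 1 library left out). Ptges3 (p23), the co-chaperone that closes the HSP90 cycle, was at 71.0, 71.1 and 87.9 FPKM in WT against 106, 117 and 82.0 FPKM in cKO, with overlap. Tomm34, Nudc and Ppid, further co-chaperones, had log2 fold changes of 0.13, -0.089 and 0.067. Of 15 chaperonin and prefoldin genes, which fold actin and tubulin, 0 rose, 0 fell and 0 had an unadjusted p under 0.05. Above 0 were 13 of them, beside 48.7% of all tested genes. After rescaling to TPM 9 of the 15 were above 0, as were 9 without WT replicate 1 and 15 without WT replicate 3. Their median of 0.15 was 0.067 after rescaling to TPM, 0.053 without WT replicate 1, 0.092 without WT replicate 2, 0.063 without cKO replicate 2 and 0.26 without WT replicate 3. Among them Pfdn1, Pfdn2, Pfdn4 and Pdcl3 had values of 0.28, 0.26, 0.34 and 0.21.

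Immediate-early genes, transcription factors and others induced within minutes of a stimulus, were set beside the heat-inducible members as another fast response. Of 26 listed 22 were tested, 0 rose, 0 fell and 4 had an unadjusted p under 0.05, where 3.04% of all tested genes did. The groups did not overlap for 1 of the 22 (Ier3), against 7.88% of tested genes. All 22 had a lower mean log2 value in cKO, and their median log2 fold change was -0.61 (-0.45 without WT replicate 2, where 2 of 22 were higher in cKO, -0.67 without WT replicate 1, where 3 were, and -0.60 without cKO replicate 1, where 1 was). For Egr1, a zinc finger protein, levels were 66.0, 171 and 13.1 FPKM in WT against 8.60, 8.66 and 18.5 FPKM in cKO. Junb, an AP-1 subunit, followed the same pattern among WT libraries, with 10.3, 33.5 and 2.504 FPKM there and 1.22, 1.74 and 3.49 FPKM in cKO. In both genes WT replicates 1 and 2 lay above all cKO libraries and WT replicate 3 did not. Ier3 (12.5 ± 2.87 and 7.61 ± 1.37 FPKM) and Ccn1 (13.5 ± 8.999 and 3.69 ± 0.712 FPKM) also had higher means in WT (SD, n = 3 each). In WT replicate 2, where Egr1 and Junb were highest, Hspa1a was at 0.782 FPKM, Hspa1b at 1.46 FPKM and Hsph1 at 18.4 FPKM, none of them the highest of the 6 libraries. Dnajb1 was at 19.9 FPKM there and at 20.2 FPKM in cKO replicate 2, the highest.

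**Figure D5:**
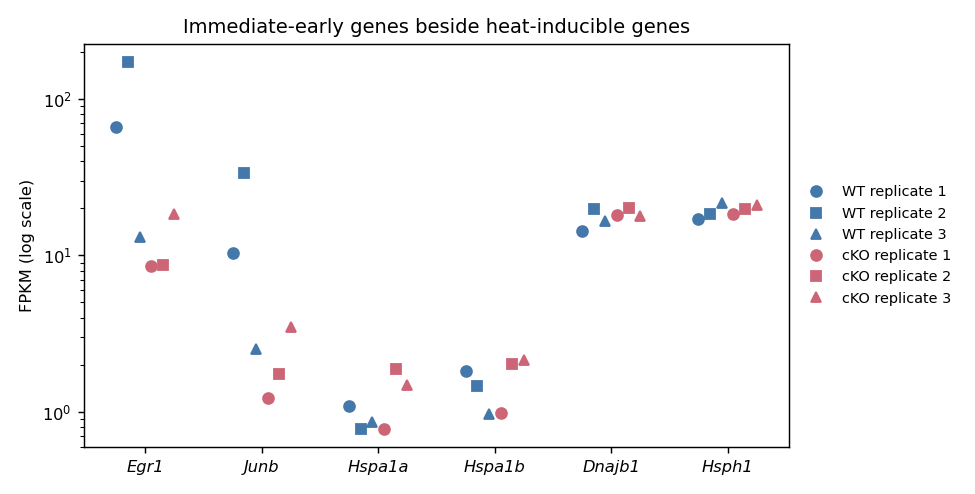
FPKM of 2 immediate-early genes (Egr1 and Junb) and 4 heat-inducible members on a log axis, one symbol per library, with WT in blue and cKO in red. Egr1 runs from 8.60 to 171 FPKM across libraries, while Dnajb1 and Hsph1 stay between 14.4 and 21.8 FPKM.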

How the data were processed

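Total RNA of 6 ovary samples, 3 WT and 3 BCAS2 cKO by their titles, was measured by the depositors, and columns were matched to samples by description. The authors deposited FPKM for 47122 gene models. Per the submitters' processing notes the aligner was HISAT2 2.0.5, with mm10 and GRCm39 as builds, and the table's coordinates carry GRCm39 accessions. For counting tool, strand setting and filters the sources used here give nothing. FPKM times gene length gave whole reads: 100% of values up to 10000 reads lay within 0.05 of a whole number. Median-of-ratios factors of the deposited FPKM were 1.00 in every library, so the values were already level by that measure.

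Log2(FPKM + 1) of the 14589 genes with at least 1 FPKM in at least 3 samples was fitted with limma 3.58.1 (R 4.3.3, trend, two-sided), with Benjamini-Hochberg adjustment at 0.05, and checked on simulated data. The simulated reads had the same spread setting in every library and none stood apart as WT replicate 1 did. That check therefore does not show what the fit can detect in these libraries. Exact permutation tests, two-sided, were run in SciPy 1.17.1, where 3 against 3 cannot go below 0.1. Alternatives were a pseudocount of 0.1, no filter or 5 FPKM, TPM, median-of-ratios, a replicate block, limma-voom on recovered reads, each replicate left out, Hspa1a and Hspa1b summed and, added later, pseudogene rows summed. Sequences were aligned with Biopython 1.88. Named genes were the members, Bcas2, the 4 of each of 7 lists with the smallest p, and the 5 most alike with a mean of at least 5 FPKM. The members and lists were chosen with earlier results of these data known. Libraries of a group differed by 15.6 to 82.2 chi-square per degree of freedom, so none looked deposited more than once.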

Additional observations from a re-analysis of the deposited data

How the results depend on the processing

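Over 133 values of the 10 members under 15 alternatives, 0 were called and 4 changed sign, the smallest adjusted p in limma being 0.599. The 133 include settings in which no sign could change. The filter settings and the replicate block leave log2 fold changes as they are, and the median-of-ratios factors were 1.00. Rescaling to TPM turned Hsph1 to -0.021, while it moved the median of all tested genes from -0.0058 to -0.082. Leaving out 1 library gave log2 fold changes of 0.14 to 0.49 for Hspa1a, 0.016 to 0.37 for Hspa1b, 0.18 to 0.80 for Hspb1, 0.031 to 0.25 for Dnajb1, 0.051 to 0.36 for Hspa8, 0.049 to 0.22 for Hspa5 and -0.14 to -0.013 for Hsp90ab1. It gave -0.017 to 0.15 for Hsph1, -0.052 to 0.31 for Hsp90aa1 and -0.088 to 0.37 for Hspa2, each of these 3 negative without WT replicate 1. Bcas2 kept its direction, at -1.16 to -0.86. Over all genes, 443 had an unadjusted p under 0.05, against 1147 with no filter (more genes tested), 254 at 5 FPKM (fewer tested) and 253 to 1056 with 1 library left out, lower without cKO replicate 1 or 2 and higher without WT replicate 3 or cKO replicate 3 by over 1.5 times. The number past adjusted p 0.05 was 0 to 1 with 1 library left out. Members without overlap numbered 1 (Hspb1) with voom and 0 to 3 with 1 library left out, where fewer samples are compared. Of all 14589 tested genes, 1209 did not overlap with voom and 1746 to 3935 with 1 library left out. The inducible minus constitutive difference lay between 0.067 and 0.21 with 1 library left out. Same-numbered samples correlated in their deviations at 0.22, 0.01 and -0.03, values that cannot exclude a pairing. With the replicate block 0 genes passed and 432 had an unadjusted p under 0.05. The members kept their log2 fold changes, which a balanced block cannot alter. Standard errors moved both ways, from 0.31 to 0.23 for Hspb1 and from 0.21 to 0.24 for Hspa1a. At 5 FPKM Hspa1a and Hspa1b were not tested. Depth limits this pair, with at most 112 reads in any library.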
